A study of Mus musculus with 20 samples.

Results

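The 10 genes described here encode catalytic or accessory subunits of mouse DNA polymerases: Pola1, Pold1, Pold2, Pold3, Pole, Polb, Poll, Polm, Polh and Polk. They were taken by symbol from the 59311 genes of the deposited table, and all 10 were found there. All 10 also passed the filter on low values, a mean of at least 10 normalized counts in 1 of the 4 groups, which left 17248 genes to test. Polh passed through the Ac-6-FP group of Ly6C hi macrophages alone and Polm through their vehicle group alone. Pold1 and Poll were selected on these data, because Pold1 was higher with Ac-6-FP in 1 macrophage subset and Poll in the other. The question was whether related polymerases followed them, so the treatment differences of Pold1 and Poll are descriptions and carry no test.

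The libraries came from 10 male C57BL/6 mice (C57BL/6J in the study's methods), aged 10 to 12 weeks per the study's methods, all of which had received carbon tetrachloride (CCl4) at 0.6 ml/kg in repeated injections over 4 weeks, a treatment that leaves the liver fibrotic. Mice 16 to 20 received Ac-6-FP (acetyl-6-formylpterin, a ligand of MR1 that inhibits MAIT cells) at 0.25 mg/kg, and mice 11 to 15 its vehicle of 1% DMSO in PBS. The first dose preceded the last CCl4 by 2 h, and 1 was given each day until the cells were sorted at day 2. From each liver, monocyte-derived macrophages (MoMac) negative for Ly6G, CD11c and CD3 and positive for CD11b and F4/80 were sorted into a Ly6C hi and a Ly6C low library, which gave 5 libraries in each of 4 groups. Every mouse was injured, so the series as used here holds no uninjured reference, and both treatment groups share the injury. A library is a sorted population, in which fewer cells expressing a gene and less RNA per cell cannot be told apart.

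DNA polymerases copy DNA in division and rebuild it in repair. Polymerase alpha starts each new strand, and polymerases delta and epsilon extend it on the lagging and the leading strand. Polymerases beta, lambda and mu fill the short gaps of base excision repair and end joining, and polymerases eta and kappa copy past damaged bases. Genes for the replicative enzymes are known to rise in dividing cells, whereas repair polymerases are also used by cells that do not divide.

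The promoters of the delta subunits and of the alpha catalytic subunit are shown because Pold1, Pold2 and Pold3 encode 1 enzyme, to which polymerase alpha hands over. They are RefSeq sequences on GRCm38.p6, from 250 bases ahead of the annotated start to 50 bases after it, all on the minus strand and printed 5′ to 3′, with each GGGCGG (GC box, on either strand) in capitals. Pold1 lies at chr7:44548766-44549065, Pold2 at chr11:5878207-5878506, Pold3 at chr7:100121453-100121752 and Pola1 at chrX:93632106-93632405.
Pold1: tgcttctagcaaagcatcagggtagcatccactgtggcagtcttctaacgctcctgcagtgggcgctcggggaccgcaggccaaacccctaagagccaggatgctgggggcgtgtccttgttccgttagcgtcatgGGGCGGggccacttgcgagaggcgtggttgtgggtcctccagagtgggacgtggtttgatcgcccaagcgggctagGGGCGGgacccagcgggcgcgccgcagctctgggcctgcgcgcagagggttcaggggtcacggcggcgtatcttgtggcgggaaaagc
Pold2: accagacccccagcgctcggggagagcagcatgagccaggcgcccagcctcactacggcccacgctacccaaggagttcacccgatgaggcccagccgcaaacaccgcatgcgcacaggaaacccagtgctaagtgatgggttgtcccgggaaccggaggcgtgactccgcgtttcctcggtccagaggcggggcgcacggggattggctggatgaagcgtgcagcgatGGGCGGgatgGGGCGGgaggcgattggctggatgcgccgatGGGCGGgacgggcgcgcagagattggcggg
Pold3: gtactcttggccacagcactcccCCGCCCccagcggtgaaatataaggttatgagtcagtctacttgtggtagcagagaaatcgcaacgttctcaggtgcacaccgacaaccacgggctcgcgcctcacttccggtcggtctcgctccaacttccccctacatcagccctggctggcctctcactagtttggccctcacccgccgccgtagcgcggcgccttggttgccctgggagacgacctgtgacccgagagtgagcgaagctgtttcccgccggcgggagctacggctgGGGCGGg
Pola1: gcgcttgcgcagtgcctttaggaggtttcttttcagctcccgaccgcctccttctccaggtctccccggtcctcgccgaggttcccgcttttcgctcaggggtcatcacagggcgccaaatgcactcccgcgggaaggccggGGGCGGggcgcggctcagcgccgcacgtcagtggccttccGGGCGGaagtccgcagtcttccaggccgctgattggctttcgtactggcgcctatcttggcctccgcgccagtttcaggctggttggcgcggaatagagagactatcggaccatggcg

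Such a table entry was matched for 7 of the 10 genes, and Poll, Pole and Polb had none. GGGCGG stood in all 7 windows, against 35.7% of 32851 promoter windows of that length. The letters CCAAT, again on either strand, stood 3 times in the Pold2 window, 2 times in that of Polm and 1 time in that of Pola1, and 37.4% of all windows held them. TTNGCGC, 1 form of the sites bound by E2F factors, was found 2 times in the Pola1 window, 138 bases ahead of the start and 15 bases after it. It was in no other of the 7 and in 6.36% of all windows. Other forms of E2F sites were not counted, so a window without TTNGCGC may still hold such a site. TATAAA stood in none of the 7 and in 13.6% of all. Matches of either strand were counted, none of these 4 words contains another, and a match is a description of the letters only.

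Values are normalized counts: reads on the constitutive parts of a gene, divided by a size factor for each library. The libraries held 5693049 to 18682437 recovered reads and 5343 to 15766 genes above 0. The fewest reads and genes were both in the Ly6C low library of vehicle mouse 13. With Ac-6-FP the genes above 0 ranged from 11096 to 15587 in Ly6C hi and from 11156 to 15766 in Ly6C low, against 9017 to 14606 and 5343 to 15723 with vehicle (two-sided exact permutation test over 5 mice against 5, p = 0.0794 and p = 0.159). Ly6c2 separated the gates, at 4930 to 10012 in Ly6C hi and 284 to 1014 in Ly6C low. The T and NK cell list, with 6 of 8 genes found, summed to 0 to 589 in Ly6C hi and 22013 to 49080 in Ly6C low, where Nkg7 held 15923 to 36198 and Cd3e at most 11.1. Itgax, which encodes CD11c, was at 0 in every Ly6C hi library and reached 3302 in Ly6C low. Csf1r, a macrophage receptor, had medians of 2381 with vehicle and 7011 with Ac-6-FP in Ly6C hi, and of 2384 and 15890 in Ly6C low. The part of these cell markers in the polymerase values was not tested.

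How often the polymerase genes were seen at all differed widely between them. Polb was above 0 in 19 of 20 libraries, Pold3 in 18 and Pold2 in 17, Pola1 in 13, Pold1 in 12, Poll in 11 and Polk in 9. Polh and Polm were above 0 in 5 libraries each and Pole in 3. The 10 genes were at 0 in 24 of 50 values (48%) of vehicle Ly6C hi MoMac and 15 of 50 (30%) with Ac-6-FP, and the same share over all 17248 genes tested was 42.3% and 30%. For Ly6C low MoMac the zeros were 30 of 50 (60%) with vehicle and 19 of 50 (38%) with Ac-6-FP, against 42.2% and 27.1% over the genes tested. Mouse 13 had none of the 10 genes above 0 in its Ly6C low library, and mouse 20 had all 10 above 0 in its Ly6C hi library, which also held 15587 genes. A 0 allows up to 3 reads, which is 3.65 normalized counts on average in the vehicle Ly6C low libraries and 2.88 in the vehicle Ly6C hi libraries, and such limits cover counting error alone.

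**Figure D1:**
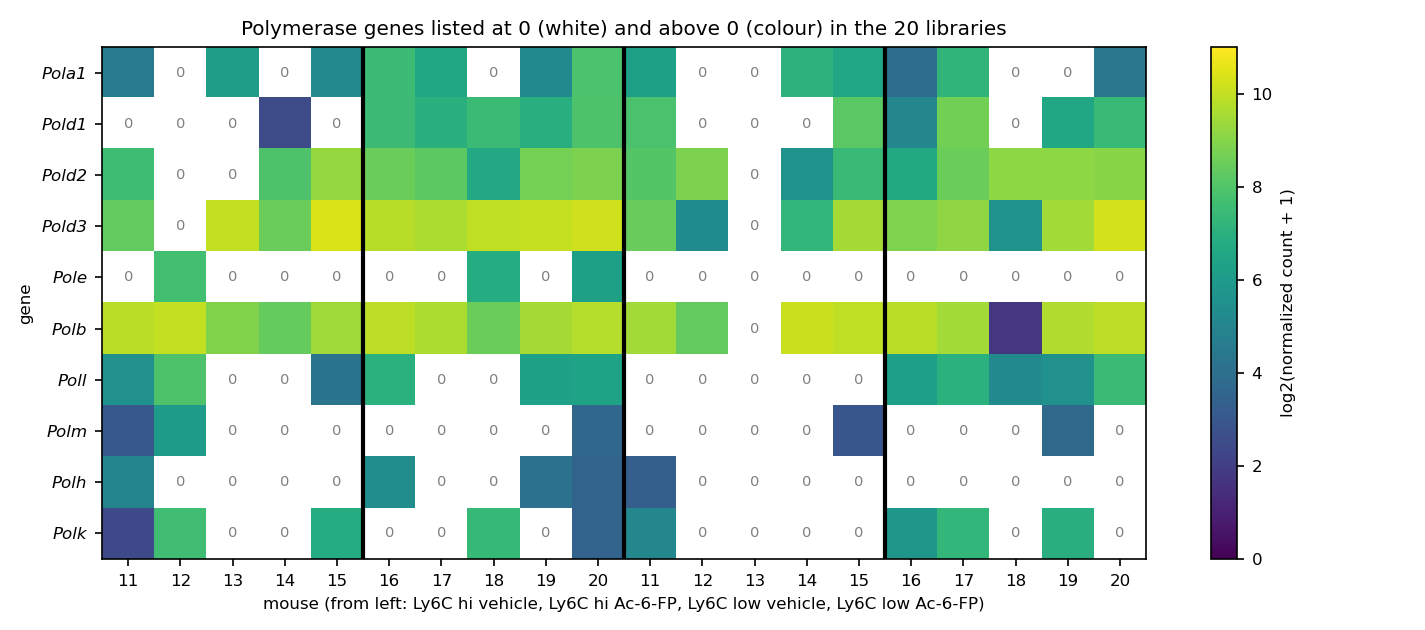
Map of the 10 polymerase genes (rows) in the 20 libraries (columns by mouse, the 10 Ly6C hi libraries left of the 10 Ly6C low libraries and vehicle left of Ac-6-FP in each). White cells marked 0 are values of 0 and colour gives log2(normalized count + 1). Polb, Pold2 and Pold3 fill most columns, Pole is white in all 10 Ly6C low libraries, and mouse 13 is white in every row of its Ly6C low library.

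Pold1, the catalytic subunit of polymerase delta (GSMG0035868, mm10 chromosome 7 from 44532744 to 44548851, minus strand, protein-coding), was the gene chosen for Ly6C hi MoMac. There it stood at 0, 0, 0, 4.83 and 0 normalized counts in vehicle mice 11 to 15 and at 184, 124, 182, 117 and 244 in Ac-6-FP mice 16 to 20. The single vehicle value was 5 reads, whereas the Ac-6-FP libraries held 1103 reads together, and the groups did not overlap. Means were 0.966 ± 2.16 (SD, n = 5) and 170 ± 51.7 (SD, n = 5), a difference of 6.86 (SE 0.77) on the log2(normalized count + 1) scale, on which all differences below are given. It was 9.56 with a pseudocount of 0.1 and 4.01 with 10. With each vehicle library set at 3 reads the Ac-6-FP mean was 59.2-fold higher. That setting puts mouse 14 under its 5 reads, so the fold is not a lower bound. Among all genes tested, 0.968% did not overlap in this direction in Ly6C hi MoMac and 0.0638% passed limma's adjusted p of 0.05 as higher. Of the 10 polymerase genes 1 did either, Pold1, by which the genes were chosen, so nothing is read from that count. Its difference was 6.72 to 7.37 in the fits that left out 1 mouse. Summed marker lists, untested, lay beside it. The Ly6C low list, 4 of 4 genes found, was at 3194 to 20574 with vehicle and 12855 to 20690 with Ac-6-FP (medians 7659 and 17085), and the T and NK cell list at 0 to 457 and 132 to 589 (medians 28.3 and 185), with Cd3e at 0 throughout. The endothelial list, 4 of 4 found, was lower, at 34.5 to 331 and 31.9 to 134 (medians 278 and 93), with Stab2, Lyve1 and Kdr at 0 throughout, and the part of these lists in the Pold1 values was not tested.

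The Ly6C low libraries of the same mice gave no such split for Pold1. With vehicle it was listed at 226, 0, 0, 0 and 291, and with Ac-6-FP at 33.1, 403, 0, 91.7 and 170 in the same order of mice. The groups overlapped, with vehicle mice 11 and 15 above 4 of the 5 Ac-6-FP mice. The means were 103 ± 144 and 139 ± 161 (SD, n = 5 each) and the log2 difference 2.34 (SE 2.36), or 1.54 without mouse 13. Mice 11 and 15, whose Ly6C hi libraries had no Pold1 read, were the vehicle mice with Pold1 in Ly6C low, and mice 14 and 18 had it in Ly6C hi alone, mouse 14 at its 5 reads. The Ac-6-FP difference in Ly6C hi exceeded that in Ly6C low by 4.52 (SE 2.49), again a description.

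Pold2, the regulatory subunit that joins the delta catalytic subunit to its partners (GSMG0006308, chromosome 11 from 5872180 to 5878256), was listed at 192, 0, 0, 242 and 607 in vehicle and 364, 300.4, 98.2, 411 and 455 in Ac-6-FP Ly6C hi libraries. The highest of these values came from vehicle mouse 15, and the groups overlapped. The log2 difference was 3.23 (SE 1.97, limma adjusted p over all genes = 0.652), 1.99 without mouse 12 or mouse 13, the vehicle mice at 0, and 0.68 in edgeR and 0.63 in DESeq2 on the recovered reads. Ly6C low libraries held 265, 448, 0, 47.1 and 174 with vehicle and 102, 369, 558, 553 and 522 with Ac-6-FP, so that 3 of 5 Ac-6-FP libraries were above every vehicle library. That difference was 2.52 (SE 1.55, limma adjusted p = 0.573), against 1.10 in edgeR and 1.16 in DESeq2.

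Pold3, the delta subunit that binds the sliding clamp PCNA (GSMG0036324, chromosome 7 from 100082112 to 100121511), had Ly6C hi values of 332, 0, 1009, 370.2 and 1336 with vehicle. Ac-6-FP libraries lay closer together at 907, 805, 975, 1054 and 1191. Their SD was 146 against 546 with vehicle, and the highest and the lowest value were both vehicle mice. The log2 difference of 2.48 (SE 1.80, limma adjusted p = 0.687) was 0.61 without mouse 12, the vehicle mouse at 0, and 0.70 in edgeR and 0.66 in DESeq2. In Ly6C low the values were 349, 39.6, 0, 156 and 736 against 473, 581, 47.8, 702 and 1221, with a difference of 2.55 (SE 1.73, limma adjusted p = 0.601), or 1.20 in edgeR and 1.25 in DESeq2. Without mouse 13, which stood apart in Ly6C low, the Ly6C low difference was 1.02 for Pold2 and 1.02 for Pold3.

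The delta subunits were also read library by library. Pold2 and Pold3 were both above 0 in 3 of 5 vehicle Ly6C hi libraries, and Pold1 with them in 1, at its 5 reads. With Ac-6-FP all 3 genes were above 0 in 5 of 5 Ly6C hi libraries. In Ly6C low the accessory pair was present in 4 vehicle libraries and Pold1 with it in 2, and with Ac-6-FP the pair was present in 5 and Pold1 with it in 4. Pold1 was never above 0 where Pold2 or Pold3 was at 0, in 12 libraries of 20. Over the 20 libraries the Pearson correlation of Pold1 on the log2 scale was 0.484 with Pold2 and 0.578 with Pold3, which ranked 2351 and 992 among the tested genes by closeness to it. The libraries come in pairs from 1 mouse and differ widely in their number of zeros, and the coefficients are descriptions.

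Pola1, the catalytic subunit of polymerase alpha that extends primers at every start (GSMG0042676, chromosome X from 93304766 to 93632155), had Ly6C hi values of 23, 0, 70.6, 0 and 35.6 with vehicle and 188, 95, 0, 36.1 and 235 with Ac-6-FP. Of the 5 Ac-6-FP libraries 3 were above every vehicle library and 1 was at 0. The log2 difference was 2.26 (SE 1.92, limma adjusted p = 0.687), 1.46 without mouse 12 and 3.62 without mouse 18. The Ly6C low libraries went the other way in their means, with 74.5, 0, 0, 137 and 90.7 against 14.2, 145, 0, 0 and 19.5, a difference of -0.88 (SE 2.07, limma adjusted p = 0.862). The treatment difference in Ly6C hi minus that in Ly6C low was 3.14 (SE 2.26, limma adjusted p = 0.83), so the opposite signs did not pass a test. Without mouse 13 the Ly6C low difference was -1.87, and without mouse 14 it was -0.10.

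Pole, the catalytic subunit of polymerase epsilon (GSMG0029590, chromosome 5 from 110286319 to 110337455, plus strand), was above 0 in vehicle mouse 12 at 204 and in Ac-6-FP mice 18 and 20 at 111 and 75.3, all in Ly6C hi. The other 7 Ly6C hi libraries were at 0, and the means were 40.9 with vehicle and 37.3 with Ac-6-FP. The log2 difference was 1.08 (SE 2.11, limma adjusted p = 0.913), 0.03 without mouse 18 and 2.61 without mouse 12. All 10 Ly6C low libraries were at 0, so there is no treatment fold there. Pole passed the filter on low values through its Ly6C hi groups.

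Polb, the main gap-filling enzyme of base excision repair (GSMG0038186, chromosome 8 from 22628119 to 22653437), was above 0 in all 10 Ly6C hi libraries. Its Ly6C hi values were 931, 1025, 477, 334 and 696 with vehicle and 946, 808, 369, 722 and 882 with Ac-6-FP, with vehicle both highest and lowest. The log2 difference was 0.15 (SE 0.37, limma adjusted p = 0.954), the smallest standard error among the 10 genes in that comparison. In Ly6C low Polb was at 719, 331, 0, 1104 and 989 against 938, 702, 2.39, 828 and 946. The 2 lowest of those were vehicle mouse 13 and Ac-6-FP mouse 18, and the difference of 0.55 (SE 2.31, limma adjusted p = 0.941) became -1.35 without mouse 13.

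Poll, polymerase lambda, a relative of Polb used in end joining and in base excision repair (GSMG0020446, chromosome 19 from 45552275 to 45560564, minus strand), was the gene chosen for Ly6C low MoMac. It was at 0 in all 5 vehicle libraries and at 73.8, 130.1, 35.9, 46.3 and 177 in those of Ac-6-FP mice 16 to 20, where 469 reads lay on it. The groups did not overlap, and the Ac-6-FP mean of 92.6 ± 59.8 (SD, n = 5) was at least 25.4-fold higher than vehicle when each vehicle library is set at 3 reads. The log2 difference was 6.30 (SE 0.74) with the zeros as they stand and 4.14 with those libraries at 3 reads. Of all genes tested, 1.29% did not overlap in this direction in Ly6C low MoMac and 0.0522% passed limma's threshold as higher, against 1 of the 10 polymerase genes by either, Poll, the gene the choice rested on, and nothing is read from that count. Its difference was 6.01 to 6.57 in the fits that left out 1 mouse, and 6.30 without mouse 13. With pseudocounts of 0.1 and 10 it was 9.60 and 3.16. Summed marker lists again lay beside it. The list for monocyte-derived macrophages, 5 of 6 genes found, was at 16711 to 31043 with vehicle and 24880 to 43970 with Ac-6-FP (medians 22133 and 39861). The erythroid list, 2 of 3 found, was lower in its median, at 149 to 17649 and 156 to 34311 (medians 1883 and 429). The Ly6C low list was at 6595 to 20104 with vehicle and 14461 to 40874 with Ac-6-FP (medians 8289 and 31025), and the dendritic cell list, 5 of 5 found, at 255 to 2575 and 1396 to 3536 (medians 1551 and 2482). The neutrophil list, 6 of 6 genes found, summed to 341 to 14053 with vehicle and 1030 to 20187 with Ac-6-FP (medians 824 and 11304). The endothelial list, 4 of 4 found, summed to 0 to 2029 and 803 to 4416 (medians 685 and 1982), with Kdr and Stab2 at 0 in every vehicle library and Lyve1 in every Ac-6-FP library. The Kupffer cell list, 4 of 4 found, summed to 0 to 249 and 113 to 616 (medians 16 and 301), and the part of these lists in the Poll values was not tested.

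The Ly6C hi libraries showed Poll in both groups. Vehicle values were 46.9, 240, 0, 0 and 17.8 and Ac-6-FP values 131, 0, 0, 76.5 and 82.7, with 2 libraries of each group at 0 and the highest value in vehicle mouse 12. The log2 difference was 0.40 (SE 2.20), and it was -0.49 without mouse 13 and 1.49 without mouse 12. Vehicle mice 11, 12 and 15 thus had Poll in Ly6C hi MoMac and none in Ly6C low MoMac, while Ac-6-FP mice 17 and 18 had it in Ly6C low alone. The difference between subsets in the Ac-6-FP change was -5.91 (SE 2.14), given as a description. Polb was above 0 without Poll in 4 of 5 vehicle Ly6C low libraries and in none of the 5 with Ac-6-FP.

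Polm, polymerase mu, the end-joining relative of Poll (GSMG0006307, chromosome 11 from 5827855 to 5838016), was near the floor. It was above 0 in vehicle mice 11 and 12 at 7.08 and 64.2 and in Ac-6-FP mouse 20 at 11.9 in Ly6C hi, a difference of -1.07 (SE 1.34) that was -0.02 without mouse 12. Polm passed the filter through that vehicle group alone, so the Ly6C hi difference is a description. In Ly6C low it was above 0 in vehicle mouse 15 at 6.62 and in Ac-6-FP mouse 19 at 12.8, with 7 and 15 reads. No fold is read there because both means, 1.32 and 2.57, were under a floor of 3 reads per library.

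Polh, polymerase eta, which copies past ultraviolet lesions (GSMG0017589, chromosome 17 from 46171356 to 46202640), reached 30.1 in vehicle mouse 11 and 41.2, 16.3 and 10.4 in Ac-6-FP mice 16, 19 and 20 among Ly6C hi libraries, with the other 6 at 0. That difference was 1.61 (SE 1.42), 0.92 without mouse 16 and 2.61 without mouse 11, and it is a description because Polh passed the filter through this Ac-6-FP group alone. In Ly6C low a single library, that of vehicle mouse 11, held it at 9.2 normalized counts. The other 9 were at 0, and no fold is given because the vehicle mean of 1.84 was under the floor of 3 reads per library.

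Polk, polymerase kappa, another lesion-bypass enzyme (GSMG0010985, chromosome 13 from 96480688 to 96542580), stood at 4.43, 195, 0, 0 and 112 with vehicle and 0, 0, 165, 0 and 10.4 with Ac-6-FP in Ly6C hi. Its difference there was -1.20 (SE 2.13, limma adjusted p = 0.891), -0.14 without mouse 12 and -2.50 without mouse 18. In Ly6C low it was above 0 in vehicle mouse 11 at 33.1 and in Ac-6-FP mice 16, 17 and 19 at 55.8, 156 and 122. That difference was 2.99 (SE 1.86, limma adjusted p = 0.576), with 2 Ac-6-FP libraries at 0 beside the 4 vehicle libraries at 0, and 2.74 without mouse 13.

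**Figure D2:**
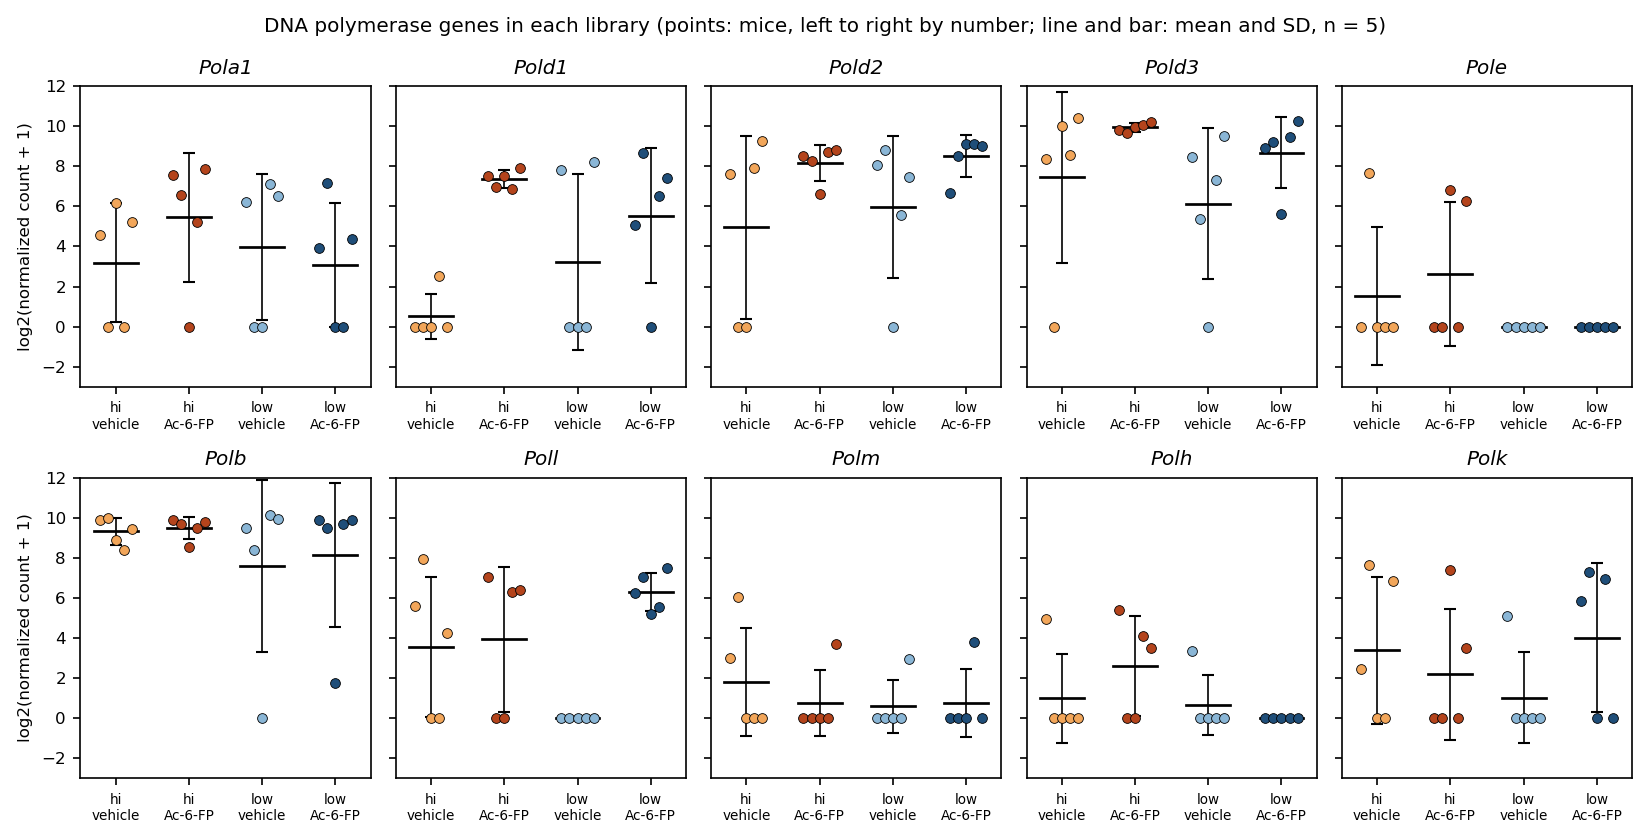
Log2(normalized count + 1) of the 10 polymerase genes in each library, with 1 panel per gene and 1 column per group of 5 mice. Points are mice in the order of their numbers and lines with bars are means ± SD. The groups separate for Pold1 in Ly6C hi, where the highest vehicle value is 4.83 and the lowest Ac-6-FP value 117 normalized counts, and for Poll in Ly6C low, where all vehicle values are 0 and the lowest Ac-6-FP value is 35.9.

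In Ly6C hi MoMac 0 of the 8 other polymerases passed limma's threshold, against 0.0754% of all genes tested in either direction, and 0 had an unadjusted p under 0.05, against 8.73%. On the recovered reads edgeR called 0 of all genes, and DESeq2 called 0 of the 8 and 1.19% of the genes with an adjusted p. In Ly6C low MoMac the counts of the 8 were again 0 for limma (0.0522% of all genes), for the unadjusted p (9.31%), for edgeR (0 of all genes) and for DESeq2, which gave 7 of the 8 an adjusted p (0.776% of all such genes called). With so few genes called at all, these counts of 0 say little about the 8. Over all 8, zeros as they stand, the median difference was 1.35 in Ly6C hi, against 0.35 over all genes tested, and 0.36 in Ly6C low, against 0.91. In edgeR it was 0.40 and 0.49 and in DESeq2 0.35 and 0.96. Polh and Polm are in these medians although each passed the filter through 1 Ly6C hi group alone, so nothing is read from them. Without Pole and Polh, which have no fold in Ly6C low, the limma median there was 1.53. The lists below leave out such genes in the same way. Polm, under the floor in Ly6C low, is still in that value, so nothing is read from it either. These medians rest on genes with many zeros, whose share over all genes was also lower with Ac-6-FP, as given above. When genes above 0 per library entered the fit as a covariate, the difference of Pold1 in Ly6C hi was 7.06 and that of Poll in Ly6C low 6.16, while Pola1, Polb, Polh and Poll in Ly6C hi and Pold1, Pold3 and Polb in Ly6C low turned negative.

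**Figure D3:**
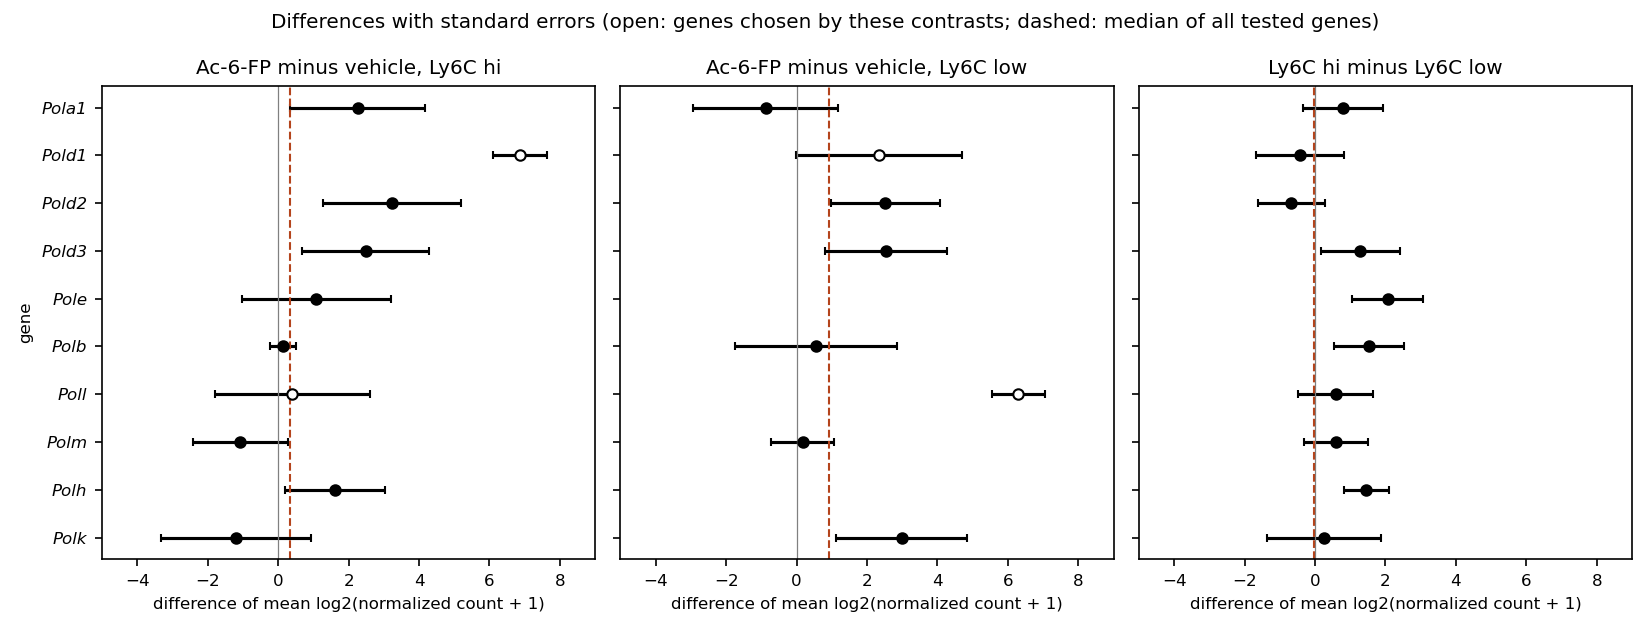
Differences of mean log2(normalized count + 1) with standard errors for Ac-6-FP minus vehicle in Ly6C hi and Ly6C low MoMac and for Ly6C hi minus Ly6C low over 10 mice. Open points mark Pold1 and Poll where the contrast chose them, and the dashed line is the median over all tested genes (0.35, 0.91 and -0.03). Pold1 at 6.86 and Poll at 6.30 lie apart, and the bars of most other genes reach 0 or the dashed line.

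The comparison of Ly6C hi with Ly6C low MoMac within mice was not the one the genes were chosen by, but it uses the same libraries, so Pold1 and Poll are given in it as descriptions with no test. limma with mouse as a block called 0 of the 8 others, against 5.22% of all genes tested. edgeR called 0 of the 8 and 2.96% of all genes, and DESeq2 called 0 of the 6 to which it gave an adjusted p and 13.9% of all such genes. An unadjusted p under 0.05 was reached by 1 of the 8, Polh, and by 17.2% of all genes. Polh and Polm each passed the filter on low values through 1 Ly6C hi group alone and Pole through both, so their values between subsets are descriptions too. Polh was higher in Ly6C hi in 4 mice and in Ly6C low in none, with means of 9.81 ± 15 and 0.92 ± 2.91 (SD, n = 10) and a log2 difference of 1.46. Pole was present in Ly6C hi in 3 mice and in Ly6C low in none, at a log2 difference of 2.07, or 1.31 without mouse 12. Polb differed by 1.54 (SE 1.00, limma adjusted p = 0.465) and by 0.64 without mouse 13.

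Of the delta subunits, Pold3 was higher in Ly6C hi in 7 of 10 mice, at 798 ± 426 against 431 ± 392 (SD, n = 10; log2 difference 1.29, SE 1.12, limma adjusted p = 0.587). Pold2 was higher in Ly6C low in 6 mice and in Ly6C hi in 3, at a log2 difference of -0.67 (SE 0.96, limma adjusted p = 0.731). Pold1 itself differed by -0.43 (SE 1.25), with 5 mice higher in Ly6C hi and 3 in Ly6C low. Pola1 split 4 to 4, Poll 5 to 3, Polk 4 to 4 and Polm 3 to 2. Their log2 differences were 0.79, 0.59, 0.26 and 0.60, with limma adjusted p-values of 0.734 for Pola1 and 0.948 for Polk. Leaving out mouse 13 gave -0.77 for Pold1, -0.80 for Pold2, 0.21 for Pold3, -0.08 for Pola1, 2.27 for Pole and 1.50 for Polh, and again 0 called. The NK and CD11c transcripts of the Ly6C low libraries, given above, accompany this comparison throughout.

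The difference of the Ac-6-FP change between the 2 subsets was also tested. limma called 0 of the 8 other genes and 0% of all genes, none of the 8 had an unadjusted p under 0.05, and edgeR called 0 of all genes. DESeq2 gave an adjusted p to 6 of the 8 and called 1, Polk, against 1.4% of all such genes. In limma Polk differed by -4.19 (SE 3.23, adjusted p = 0.83), the most negative of the 8.

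Genes that work with these enzymes were read from 7 lists chosen for their roles. Of the further polymerase and primase genes 14 of 17 were tested. For all lists below, 8.73% of all genes tested in Ly6C hi and 9.31% in Ly6C low had an unadjusted p under 0.05. The median difference of these genes was 1.11 in Ly6C hi and 2.83 in Ly6C low MoMac, with 11 and 14 genes above 0, and limma called 0 in each, with 3 and 2 at an unadjusted p under 0.05. The best expressed of them, the epsilon subunit Pole4, differed by 3.16 (SE 1.50, limma adjusted p = 0.605) and by 0.79 (SE 0.30, limma adjusted p = 0.528). Pole3, its partner, differed by 0.86 and 0.84, and the primase subunit Prim2 by 0.23 and 3.22, none past the threshold. DESeq2 called 1, Dntt, in Ly6C low, which was at 0 in all vehicle and in 3 Ac-6-FP libraries and passed the filter through that Ac-6-FP group alone.

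The sliding clamp, its loader and the genes that finish Okazaki fragments, 13 of 13 tested, had medians of 0.71 and 1.64, with 0 called in either subset and 2 and 1 at an unadjusted p under 0.05. Pcna, the clamp that holds polymerase delta on DNA, was at 1555 ± 494 with vehicle and 2089 ± 500 with Ac-6-FP in Ly6C hi (SD, n = 5), a log2 difference of 0.45 (SE 0.24, limma adjusted p = 0.651), and differed by -0.03 in Ly6C low. Rfc2, a clamp loader subunit, differed by -0.04 and 0.27, and Rpa1, which coats single strands, by 1.14 and 3.06, none past the threshold. Origin licensing and helicase genes, 15 of 16 tested, had medians of 1.51 and 1.55, with 0 called and 1 at an unadjusted p under 0.05 in each. Its helicase subunits Mcm3, Mcm4 and Mcm5 differed by 0.62, 2.37 and 3.65 in Ly6C hi and by 1.50, 0.27 and 3.81 in Ly6C low.

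S phase and nucleotide supply genes, 11 of 11 tested, had medians of 0.86 and 2.08, with 0 called and 2 and 4 at an unadjusted p under 0.05. Rrm1, a subunit of ribonucleotide reductase, differed by 1.01 and -0.76, Rrm2 by 0.86 and 1.37 and the thymidylate synthase gene Tyms by 0.36 and 2.08. Base excision repair genes, 10 of 11 tested, had medians of 0.51 (0.24 with an all-zero group at 3 reads) and 1.54, end joining genes, 7 of 8 tested, 0.01 and 1.45, and lesion bypass regulators, 8 of 8 tested, -0.05 and 1.51. limma called 0 in each, against 0, 0 and 0 at an unadjusted p under 0.05 in Ly6C hi and 1, 1 and 1 in Ly6C low, and DESeq2 called 1, Lig4, in Ly6C hi, where it was at 0 in all Ac-6-FP and in 3 vehicle libraries. Among the best expressed, Apex1 differed by 0.05 and 1.56, Parp1 by 1.40 and 2.89, Xrcc6 by -0.59 and 1.92, Xrcc4 by -0.22 and 2.32, Dclre1c by 1.60 and 1.06, Ube2a by 0.29 and 0.44 and Ube2b by -0.03 and 0.30. Ube2n, which joins ubiquitin chains in lesion bypass and is the best expressed of its list, differed by -0.34 and -0.66 (limma adjusted p = 0.577 and 0.452) and is the 1 lesion bypass gene with an unadjusted p under 0.05 in Ly6C low. edgeR called 0 genes of any list in either treatment comparison, and each median stands beside 0.35 and 0.91 over all genes tested. In Ly6C low that median over all genes was 0.35 without mouse 13, and 0.06 with genes above 0 per library as a covariate. In Ly6C hi the covariate gave 0.01. List medians without mouse 13 or with the covariate are not given.

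Between subsets the S phase list had a median of 2.33, with 10 of 11 genes above 0 and 7 at an unadjusted p under 0.05, which 17.2% of all genes had. End joining genes had a median of 0.30, with 5 of 7 above 0 and 2 at an unadjusted p under 0.05, and lesion bypass regulators 0.21, with 5 of 8 and 2. Nhej1, an end joining factor, passed and was higher in Ly6C hi in 8 of 10 mice (log2 difference 4.40, SE 1.05, limma adjusted p = 0.0323), and it was at 0 in 6 Ly6C low libraries and 1 Ly6C hi library. Ube2b, which acts with Rad18 on PCNA, passed and was lower in Ly6C hi in all 10 mice, at 2744 ± 366 against 4309 ± 778 (-0.64, SE 0.11, limma adjusted p = 0.00545). edgeR called Ube2b and not Nhej1. DESeq2 called Nhej1 in the end joining list and Ube2b and Wdr48 in that of lesion bypass, against 13.9% of all genes to which it gave an adjusted p. The other two genes with an unadjusted p under 0.05 were Xrcc5, at 0 in all 10 Ly6C hi and in 5 Ly6C low libraries (-3.74, limma adjusted p = 0.0872), and Wdr48, higher in Ly6C hi in 9 mice (2.15, limma adjusted p = 0.167). Xrcc5 passed the filter through Ly6C low groups, and both were picked after their values were seen. The 4 lists of further polymerases, clamp, origin licensing and base excision repair genes had medians from -0.59 for the further polymerases to 1.15 for origin licensing, against -0.03 over all genes. limma and edgeR called 0 in them, with 2, 2, 3 and 0 genes at an unadjusted p under 0.05 in the further polymerases, the clamp list, origin licensing and base excision repair, and DESeq2 called 2, 2, 2 and 0.

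**Figure D4:**
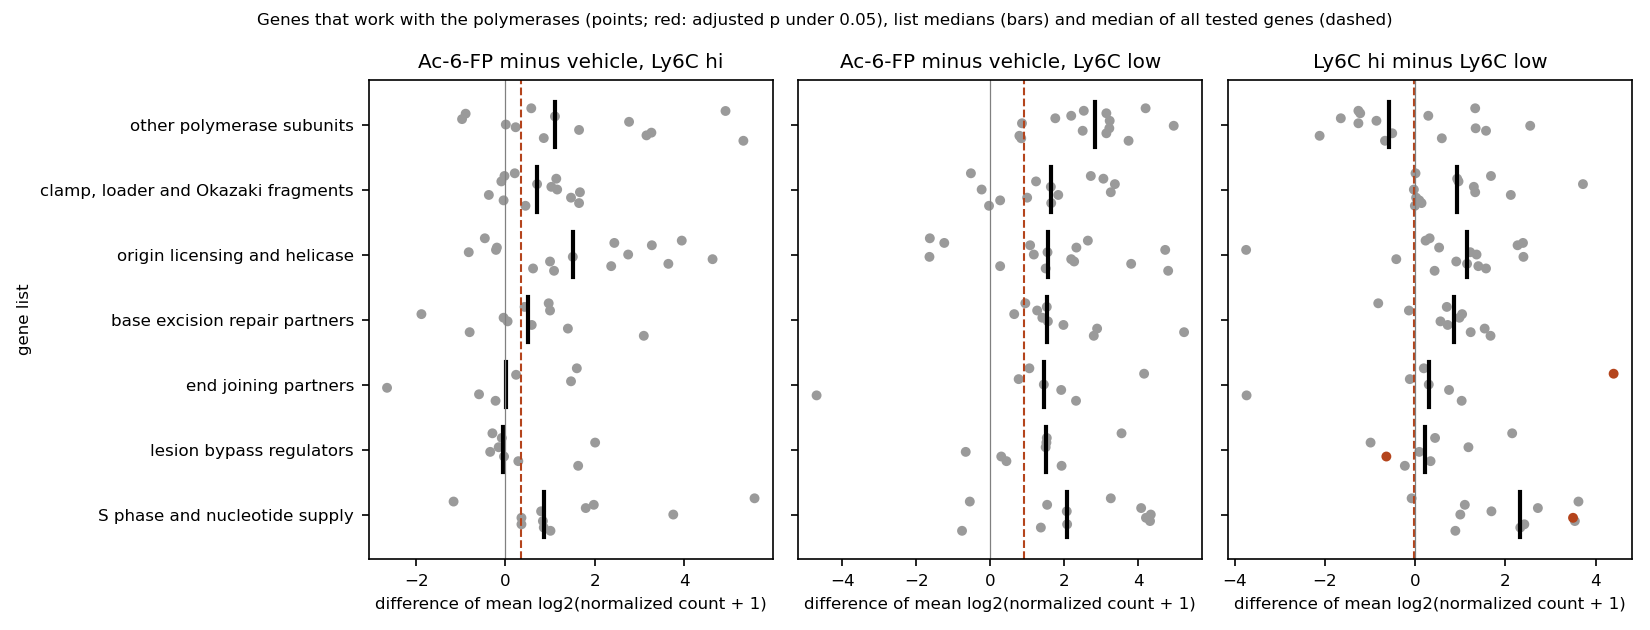
Differences of mean log2(normalized count + 1) for the genes of 7 lists that work with the polymerases (points), for Ac-6-FP minus vehicle in Ly6C hi and in Ly6C low and for Ly6C hi minus Ly6C low. Bars are list medians, dashed lines the medians of all tested genes (0.35, 0.91 and -0.03), and red points passed an adjusted p of 0.05. No point is red in the treatment panels, and Nhej1 and Ube2b are among the 3 red points in the subset panel.

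The genes whose pattern over the 20 libraries was most like that of Pold1 were Rxrb, Hps1, E2f1, Stat5a and the unnamed gene GSMG0017331, with Pearson correlations of log2 values of 0.942, 0.904, 0.888, 0.866 and 0.861. Of the 8 libraries with Pold1 at 0, Rxrb and E2f1 were each at 0 in 7, and shared zeros weigh heavily in these coefficients. E2f1 averaged 6.9 ± 15.4 with vehicle and 121 ± 73.5 with Ac-6-FP in Ly6C hi, a difference of 5.58 (SE 1.24), given as a description because the gene was named for its likeness to Pold1. For Poll they were Ndst2, 2210016F16Rik, Timeless, Pik3cd and Ncoa1, at 0.876, 0.873, 0.845, 0.811 and 0.808, and Timeless shared all 9 zeros of Poll. No polymerase was among the 5 of either gene. Poll was closest to Polm among the other polymerases, at 0.37, and Pold1 and Poll had 0.194 between them, with both at 0 in 4 libraries and both above 0 in 7.

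No other gene of the table overlapped Pold1, Poll or Pole. Nr1h2, 764 bases beyond the start of Pold1, was at 867, 135, 382, 617 and 1527 with vehicle and 1039, 1639, 2024, 743 and 1614 with Ac-6-FP in Ly6C hi, and its groups overlapped. Dpcd, 20 bases from Poll, was at 456, 613, 0, 238 and 954 against 1104, 347, 876, 191 and 553 in Ly6C low, also overlapping. Both neighbours were picked after their values were seen. Pold3 shared 39400 bases with the unnamed gene GSMG0068852, whose values followed it at a correlation of 0.997, and Pold2 shared 1268 bases with GSMG0004859 (0.928) and 69 with Aebp1. Polk, Polb, Pola1, Polh and Polm each overlapped 1 unnamed gene. Since the sources do not state that strand was used in counting, reads of such pairs cannot be told apart.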

How the data were processed

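Polyadenylated RNA of sorted macrophages from 10 mice was sequenced as 75-base read pairs. Per the study's methods and the submitters' processing notes, the authors aligned reads to mm10 with STAR 2.4.0, counted those on constitutive regions of FAST DB genes and normalized them with DESeq2. The deposited values are this signal, normalized counts per gene and library. Every column was mapped to a sample (0 were not). Values above 0 were whole multiples of 1 step per library for 99.985% of them (tolerance 0.006), so whole reads were recovered. For mouse 15, Ly6C hi, that step was close to 1 (0.989).

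Log2(normalized count + 1) was tested for 17248 genes with a mean of at least 10 in 1 group, with limma 3.58.1 (R 4.3.3), variance trend and Benjamini-Hochberg adjustment at 0.05. Treatment was compared within each subset. Subsets, and the difference of treatment changes, were compared with mouse as a block, since both libraries come from 1 animal (residual correlation within mice 0.00334 to 0.25, median 0.0338). p-values measure the spread between these mice. Recovered reads were tested with edgeR 4.0.16, which called 0 genes for treatment in either subset, and DESeq2 1.42.0. The fits were also run on simulated counts with 1 dispersion for all genes and no mouse effect. Only genes with a mean of at least 100 were changed there, so that check does not cover genes with many zeros. Single values per library used exact permutation tests (scipy 1.17.1), which with 5 against 5 cannot go below p = 0.00794. Plots used matplotlib 3.10.9. Strand came from GENCODE release M21 and promoters from RefSeq tables.

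The polymerase genes and the lists were chosen with earlier results of these data known. Named genes are the 10 polymerases, the list genes past the threshold or otherwise up to 3 per list with the highest mean, and the 5 genes most like Pold1 and Poll. Values of some list genes are not reported here. Neighbouring genes, E2f1 and single genes called by DESeq2 alone were named after seeing values. Alternatives were other pseudocounts (0.1 and 10), other filters, genes detected as a covariate, edgeR, DESeq2, a fit on all 20 libraries, fits without the block and fits without each mouse.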

Additional observations from a re-analysis of the deposited data

Results flagged for a closer look

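In 13 of 36 combinations of gene and group with any spread, 1 library stood apart from the other 4 by a gap of more than 0.71 of the group's range (Dixon's criterion, which chance alone meets in about 1 of 20 groups of normal values). In 8 of them the other 4 libraries were at 0. Among Ly6C hi vehicle libraries these were Pold1 at 4.83 in mouse 14, Pole at 204 in mouse 12, Polh at 30.1 in mouse 11, Poll at 240 in mouse 12 (next 46.9) and Polm at 64.2 in mouse 12 (next 7.08). Among Ly6C hi Ac-6-FP libraries, Polk stood at 165 in mouse 18 (next 10.4) and Polm at 11.9 in mouse 20. Ly6C low vehicle libraries held Polh at 9.2 and Polk at 33.1, both in mouse 11, and Polm at 6.62 in mouse 15. Ly6C low Ac-6-FP libraries held Pola1 at 145 in mouse 17 (next 19.5), Polm at 12.8 in mouse 19 and, as the only low value, Polb at 2.39 in mouse 18 (next 702). Mouse 12 accounted for 3 of the 13 and mouse 11 for 3.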

How the results depend on the processing

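The direction of Pold1 in Ly6C hi and of Poll in Ly6C low was fixed by their choice, so only sizes are given. The log2 difference of Pold1 was 9.56 with a pseudocount of 0.1 and 4.01 with 10, and 6.72 to 7.37 without 1 mouse. That of Poll was 9.60 and 3.16 with those pseudocounts, 9.45 in edgeR (9.43 without mouse 15, an alternative added after seeing the data), 8.79 in DESeq2 and 6.01 to 6.57 without 1 mouse. The counts of polymerases called for treatment hold only the gene that the same contrast chose, and nothing is read from them. In Ly6C hi the count was 0 instead of 1 with a pseudocount of 0.1, with genes detected as a covariate, in edgeR with all mice or without mouse 15, and in the fit on all 20 libraries, and 0 to 1 without 1 mouse. In Ly6C low it was 0 instead of 1 with a pseudocount of 10, no filter, a group mean of 100 (where Poll is not tested), the covariate, both edgeR fits and the fit on all 20 libraries, and 0 to 1 without 1 mouse. For the difference between subsets DESeq2 called 1 instead of 0. Reversed signs in Ly6C hi were, with the covariate, Pola1 -0.34, Polb -0.31, Polh -0.82 and Poll -1.76; in edgeR Pole -0.13 and Poll -0.03 (-0.48 and -0.29 without mouse 15); and in DESeq2 Pole -0.20 and Poll -0.12. In Ly6C low the covariate gave Pold1 -0.77, Pold3 -0.08, Polb -2.56 and Polm -0.37. Both Polm means in Ly6C low were under the floor of 3 reads per library, so no sign of Polm there is read. Between subsets edgeR gave Polk -0.16 (-2.49 without mouse 15, with Pold1 at 0.23). Without 1 mouse the ranges that crossed 0 were -0.08 to 0.39 for Polb and -0.49 to 1.49 for Poll in Ly6C hi, -1.35 to 2.14 for Polb and -0.59 to 0.76 for Polm in Ly6C low, and between subsets -1.14 to 0.25 for Pold1, -1.09 to 0.30 for Pold2, -0.08 to 1.58 for Pola1 and -0.89 to 0.94 for Polk. The cause of these moves was not tested. Without the replicate block the number of polymerases called between subsets stayed at 0, and the treatment difference between subsets was 4.52 for Pold1 and -5.91 for Poll as with it. The median over all genes in Ly6C hi was 0.35 in limma, 0.10 in edgeR and 0.15 in DESeq2, and in Ly6C low 0.91, 0.29 and 0.37. Leaving out the Ly6C low vehicle library of mouse 13 does not touch the Ly6C hi comparison and equals leaving out mouse 13 in the others.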
